A study of Mus musculus with 12 samples.

Results

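The nonproductive T cell receptor alpha (TRA) rearrangements described here are V-J joins that were assembled in called cells, carried both a named V and a named J gene, and were not marked productive. Each combination of V gene, J gene and CDR3 bases (the stretch that spans the V-J join) was counted once per library, with contig length in place of the CDR3 where none was called. This gave 2288 nonproductive rearrangements among 11671 distinct TRA rearrangements, and the other 9383 were productive. The name covers more than 1 kind of contig. Of 2373 nonproductive contigs, 548 were marked as not productive and 1825 carried no call, and 1815 had no CDR3. For contigs with no call, a join that is out of frame and a coding join whose CDR3 was not read cannot be told apart.

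The alpha chain locus is assembled in the thymus by joining 1 of many V segments to 1 of many J segments, with bases trimmed and added at the join. Both alleles rearrange, often together, and each can be rearranged again: a later join deletes the earlier one and uses a V segment farther upstream and a J segment farther downstream, nearer the constant gene. A join that shifts the reading frame or holds a stop codon makes no receptor protein, is not itself selected for what it binds, and its RNA is a substrate of nonsense-mediated decay, which degrades transcripts with early stop codons.

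The study sequenced T cell receptors of CD45+ immune cells that infiltrated mammary tumours in Balb/c mice, and treated animals received cyclophosphamide and pexidartinib over 3 weeks. The 6 libraries are called by the names in the deposited table: PBS1, PBS2, CSF1R, CTX, CTX2 and Combined. The labels do not define these names. By matching numbers, CSF1R, CTX, CTX2 and Combined belong to treated records (CSF1R to either of 2 with the same number) and PBS1 to an untreated record, whereas PBS2 has a treated receptor record and an untreated paired expression record and was left out of that comparison. Nothing in the labels says how many animals stand behind a library, so p-values measure the spread between these libraries. The libraries held 245 to 7629 called cells, of which 199 to 6476 had a TRA contig, with 1921 to 27667 TRA UMIs (unique molecular identifiers, each marking 1 captured molecule). As a check of the cell type, called cells held 14593 TRA and 17110 beta chain (TRB) contigs against 1 TRG, 1 TRD and 10 immunoglobulin contigs (8 IGH, 2 IGL and 0 IGK), after an enrichment for T cell receptors. Of 11468 distinct called barcodes, 50 occurred in 2 or more libraries, and 0 of them carried the same nonproductive V-J pair in both.

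The CDR3s below carry the results on TRAJ23, TRAJ2 and TRAJ17. They are written 5′ to 3′ as deposited, in lower case, and capitals mark each stop codon in the frame counted from the first base of the CDR3. For TRAJ23, 1 nonproductive CDR3 from each library is followed by the 3 productive ones, all from Combined:
PBS1 TRAV6-7-DV9 TRAJ23: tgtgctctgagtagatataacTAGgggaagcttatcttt
PBS2 TRAV13-1 TRAJ23: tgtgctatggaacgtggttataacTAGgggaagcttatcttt
CSF1R TRAV7D-4 TRAJ23: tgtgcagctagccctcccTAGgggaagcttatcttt
CTX TRAV7D-3 TRAJ23: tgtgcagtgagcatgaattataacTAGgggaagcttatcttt
CTX2 TRAV13D-2 TRAJ23: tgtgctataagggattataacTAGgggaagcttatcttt
Combined TRAV3-3 TRAJ23: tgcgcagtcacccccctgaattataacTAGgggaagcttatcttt
productive TRAV12-1 TRAJ23: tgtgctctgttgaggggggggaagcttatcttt
productive TRAV14N-1 TRAJ23: tgtgcagcaaagaggaagcttatcttt
productive TRAV7-4 TRAJ23: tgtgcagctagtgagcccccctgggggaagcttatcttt
The 6 nonproductive CDR3s end alike after different V genes and different inserted bases, and the productive ones lack the stop codon.

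For TRAJ2 and TRAJ17, a nonproductive CDR3 is followed by a productive one of the same J gene, so that the shift of frame can be read from the J-encoded end. The CSF1R join is the nonproductive CDR3 found in most barcodes of that library:
PBS1 TRAV12D-2 TRAJ2: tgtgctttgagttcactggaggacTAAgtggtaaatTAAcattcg
CTX productive TRAV9-4 TRAJ2: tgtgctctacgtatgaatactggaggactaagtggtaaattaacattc
CTX2 TRAV9-4 TRAJ17: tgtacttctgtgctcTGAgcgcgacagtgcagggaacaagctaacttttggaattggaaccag
CTX2 TRAV4-3 TRAJ17: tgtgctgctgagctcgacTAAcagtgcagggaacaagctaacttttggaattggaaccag
PBS1 productive TRAV3-3 TRAJ17: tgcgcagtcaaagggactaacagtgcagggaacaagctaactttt
CSF1R TRAV12N-1 TRAJ47: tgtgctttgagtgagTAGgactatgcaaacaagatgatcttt

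Nonproductive rearrangements made up 16.3% to 35.4% of the distinct TRA rearrangements of a library. The share was 32.6% in PBS1 (70 of 215 with a Clopper-Pearson 95% interval of 26.3% to 39.3%), 25.05% in PBS2, 22.8% in CSF1R, 29.0% in CTX, 35.4% in CTX2 (32.1% to 38.8%) and 16.3% in Combined (15.6% to 17.1%). The mean was 26.9% ± 6.94 (SD, n = 6). It was 7.62% with contigs marked as not productive alone and 17.5% with high-confidence contigs alone. Combined, with the most cells, was lowest and CTX2 was highest. Intervals cover counting error only.

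Part of the CTX2 share came from expanded clones in which 1 V-J pair was assembled at many contig lengths. With contigs that lacked a CDR3 counted once per V and J gene, the CTX2 share was 24.0%, with 164 rearrangements in place of 284, and PBS1, at 29.3%, was highest. Combined stayed lowest under that count, at 13.1%.

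Counted by cells, 33.2% of the cells with a TRA contig carried a nonproductive one in PBS1, 31.0% in PBS2, 29.0% in CSF1R, 32.4% in CTX, 31.4% in CTX2 and 20.8% in Combined. The first 5 libraries lay close together and Combined lay apart below them. Of 2301 such cells, 583 (25.3%) had no productive TRA contig, from 12.02% in CTX2 to 30.2% in Combined.

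**Figure D1:**
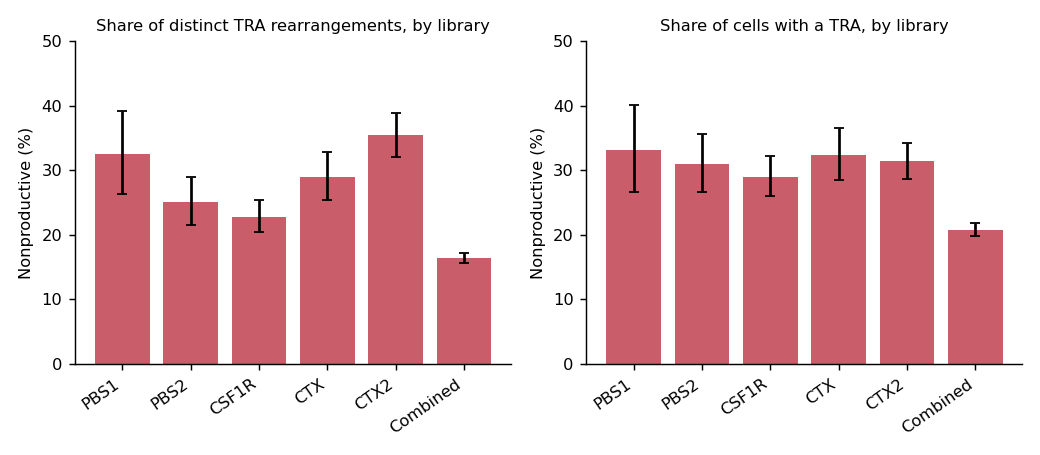
Nonproductive TRA rearrangements by library, as a percentage of distinct TRA rearrangements (left) and, by cells, as the percentage of TRA-bearing cells with at least 1 (right). Bars are the values of single libraries and error bars are exact 95% intervals for counting error; Combined is lowest in both panels, at 16.3% and 20.8%.

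The labels allow treated libraries to be set against 1 untreated library. The share of rearrangements that were nonproductive averaged 25.9% ± 8.19 (SD, n = 4) in the treated libraries and was 32.6% in the untreated one (n = 1). The difference of −6.68 percentage points gave a two-sided exact permutation p = 0.6, and 0.2 is the smallest p this design allows. Of the treated libraries, CTX2 lay above the untreated one and CSF1R, CTX and Combined lay below it. The 2 libraries with JR-prefixed numbers, CTX2 and Combined, held the highest and the lowest share of all 6. The labels do not say what the prefix stands for, and both are treated, so treated and untreated cannot be compared among them.

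The nonproductive chains were represented by fewer molecules than the productive chains of the same library. The median nonproductive contig had 2 UMIs in PBS1, 2 in PBS2, 1 in CSF1R, 2 in CTX, 2 in CTX2 and 1 in Combined, and the median productive contig had 5, 3, 3, 5, 6 and 3 UMIs in the same order. No library had a nonproductive median at or above its productive one. The mean log2 UMIs per distinct rearrangement was lower for the nonproductive class in 6 of 6 libraries, by 1.48 in PBS1, 0.96 in PBS2, 0.69 in CSF1R, 1.25 in CTX, 1.59 in CTX2 and 0.91 in Combined.

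The mean difference of −1.15 ± 0.35 (log2 scale, SD, n = 6) is a geometric mean ratio of 0.451. The log2 difference was −1.25 in the 2 JR-numbered libraries (CTX2 and Combined) and −1.10 in the other 4, and −0.72 over the 6 libraries with high-confidence contigs alone (−0.76 for reads). The two-sided exact sign-flip permutation p was 0.03125, the smallest that 6 libraries can give, and 0.075 after Benjamini-Hochberg adjustment over 12 single-value comparisons, so that no comparison of that family passed the adjusted threshold of 0.05. Reads gave nearly the same ratio, 0.452 (log2 difference −1.15 ± 0.24, SD, n = 6, lower in 6 of 6 libraries, exact sign-flip p = 0.03125, adjusted 0.075).

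Many nonproductive rearrangements rested on a single molecule. Rearrangements with 1 UMI made up 41.4% of the nonproductive class in PBS1, 48.9% in PBS2, 50.2% in CSF1R, 45.6% in CTX, 45.4% in CTX2 and 59.6% in Combined. In the productive class the share ran from 7.53% in CTX2 to 22.99% in CSF1R, so the classes did not overlap. The mean difference was 33.4 ± 4.29 percentage points (SD, n = 6), with exact sign-flip p = 0.03125 and an adjusted p of 0.075, and averaged 38.3 in the JR-numbered and 30.9 in the other libraries. With high-confidence contigs alone the difference was 4.47 percentage points (exact sign-flip p = 0.03125, not adjusted). Contigs marked as high confidence were 52.9% of the nonproductive and 92.2% of the productive contigs. In all, nonproductive contigs held 9.07% of the TRA UMIs.

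**Figure D2:**
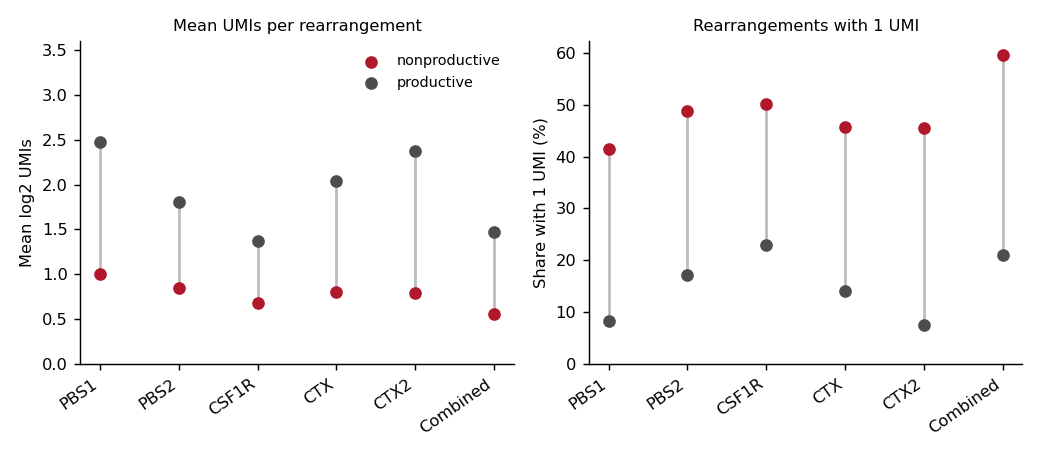
Mean log2 UMIs per distinct TRA rearrangement (left) and percentage of rearrangements with 1 UMI (right) in each of the 6 libraries, for the nonproductive (red) and productive (grey) class, with a line joining the classes of a library. The nonproductive point is lower on the left and higher on the right in each library.

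The same difference was present between chains of 1 cell barcode, where depth and cell quality are shared. In 1588 barcodes exactly 1 productive TRA contig was found together with a nonproductive one of another V-J pair. Where a barcode held more than 1 such nonproductive contig, the one with the most UMIs was used. The nonproductive contig had fewer UMIs in 75.6% of them, as many in 12.3% and more in 12.1%. The share with fewer ran from 69.1% in CSF1R to 86.6% in CTX2. The mean log2 ratio within barcodes was −1.49 in PBS1, −1.24 in PBS2, −0.88 in CSF1R, −1.46 in CTX, −1.69 in CTX2 and −1.10 in Combined, negative in 6 of 6 libraries. It averaged −1.31 ± 0.29 (SD, n = 6), a ratio of 0.403, with exact sign-flip p = 0.03125 and an adjusted p of 0.075. The JR-numbered libraries averaged −1.40 and the others −1.27. With high-confidence contigs alone the mean was −0.51 (exact p = 0.03125, not adjusted).

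In the clones of at least 10 cells with a nonproductive V-J pair in at least 3 cells, that pair was found in fewer sister cells than the leading productive chain. A clone was the set of cells of a library that shared the TRBV gene and TRB CDR3, so the alpha chain played no part in its definition. The largest CTX2 clone, with TRBV4 and TRBJ2-7, had 117 cells. A nonproductive TRAV13N-3/TRAJ53 join was found in 70 of them (59.8%) and in 0 cells outside the clone, and the productive TRAV7D-4/TRAJ49 chain was found in 109 (93.2%). The medians were 2 UMIs for the nonproductive and 8 for the productive chain, whereas in a PBS2 clone of 27 cells TRAV12D-2/TRAJ32, found in 3 cells, had a median of 7 against 3. The TRAV13N-3/TRAJ53 pair of CTX2 was assembled at 45 contig lengths, and by the counting rule it stood for 45 of the 284 nonproductive rearrangements of CTX2.

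Other clones of at least 10 cells showed the same order. Smaller clones, of 3 to 8 cells, cannot decide this, because a nonproductive pair was listed only if found in at least 3 cells. The productive chain had no such minimum, so the choice favoured the nonproductive pair. In these clones that pair was in more cells than the productive chain for TRAV12N-1/TRAJ47 in CSF1R (71.4% against 57.1%). In CTX it was so for TRAV13-1/TRAJ45 (100% against 66.7%), TRAV6-3/TRAJ9 (75% against 50%) and TRAV14N-1/TRAJ57 (37.5% against 0%). In the other 4 smaller clones both were in as many cells. In CTX2, the nonproductive TRAV9-4/TRAJ17 pair was found in 40 of 86 cells of a TRBV13-2 clone (46.5%), against 89.5% for its productive chain, TRAV7-1/TRAJ22, and in 3 cells outside the clone. The exact frame-shifted CDR3 printed above was read in 24 barcodes of the library. TRAV4-3/TRAJ42 was found in 25 of 47 cells (53.2%), against 91.5%. In CTX, TRAV7-1/TRAJ34 was found in 16 of 41 cells (39.0%), against 87.8%. In PBS1, TRAV8N-2/TRAJ23 was found in 5 of 12 cells (41.7%), against 100%. A CTX2 clone of 41 cells carried TRAJ49 with TRAV14D-2 in 11 cells and with TRAV14N-2 in 9 cells. These V genes are copies from duplicated V blocks, and whether reads of 1 join were split between them cannot be told from the table.

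Over all libraries, 46 of 2288 nonproductive rearrangements were seen in 2 or more barcodes of a library, 29 of them in CTX2, and 34 of the 46 were shared by sister cells. Their barcodes with a TRB chain numbered 125, and most of them fell in the main clone of their rearrangement (86 of 87 in CTX2 and 10 of 12 in CTX). In Combined, where 9 rearrangements recurred, 0 were shared by sisters. Between libraries, 1 of 519 nonproductive CDR3-defined joins was found in 2 libraries (TRAV9-4/TRAJ56, 1 barcode each in PBS2 and Combined), or 0.193%. Another 9 nonproductive rearrangements in 2 libraries had no CDR3 and were matched by contig length only. Of 9241 productive joins, 126 (1.36%) were found in 2 or more libraries. These percentages are not corrected for the number of joins read, so they do not show which class is shared more.

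**Figure D3:**
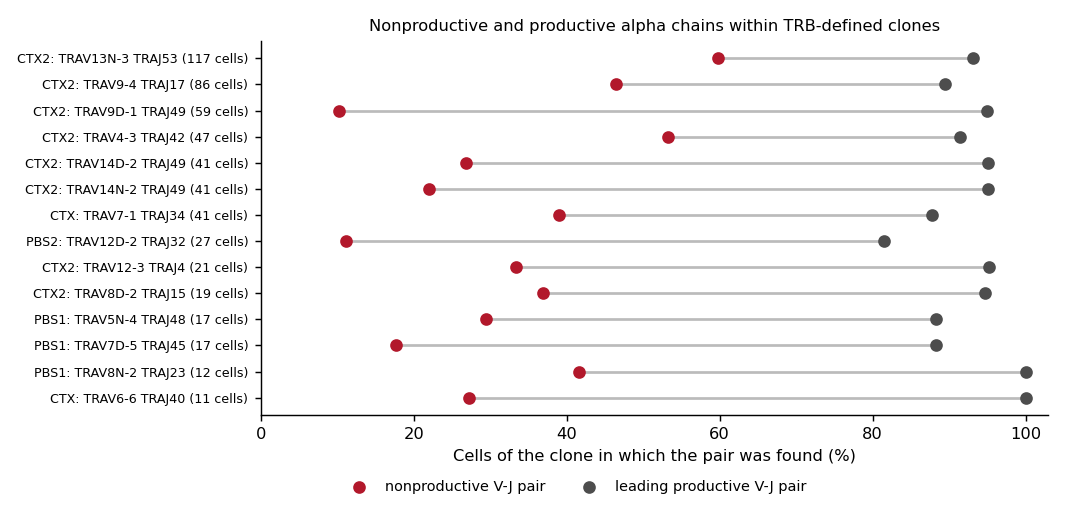
Percentage of the cells of a TRB-defined clone in which its nonproductive V-J pair (red) and its leading productive V-J pair (grey) were found, for nonproductive pairs found in at least 3 cells of clones of at least 10 cells. Each row is 1 nonproductive pair, with library and clone size; the productive chain lies to the right in each row, for instance at 93.2% against 59.8% for TRAV13N-3/TRAJ53.

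Among J segments, TRAJ23 set the nonproductive class apart. It was used by 10 nonproductive rearrangements in PBS1, 5 in PBS2, 8 in CSF1R, 9 in CTX, 3 in CTX2 and 48 in Combined, 83 in all, and by 3 productive ones, all in Combined. The other 5 libraries had 0 productive TRAJ23 rearrangements among 145 to 857. TRAJ23 took 14.3% of the nonproductive class in PBS1 and 1.06% to 5.26% in the others. In PBS1, 4 of the 10 were the TRAV8N-2/TRAJ23 pair of 1 clone, counted at 4 contig lengths. The pooled shares were 3.63% and 0.0320%, a ratio of 113 with a 95% counting interval of 37.5 to 561. The interval takes each rearrangement as independent. The 83 came from 60 V-J pairs, counted per library, so it may be too narrow. In the fit across all J genes the log2 fold change was 6.40 ± 0.52 (SE, edgeR quasi-likelihood test, adjusted p = 2.398e-25), higher in 6 of 6 libraries. TRAJ23 had 3 productive rearrangements and met the minimum of 10 for a test through the nonproductive class alone. Its call thus carries no weight beyond the counts.

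TRAJ23 lies at chr14:54196081-54196140 (GRCm38) and is annotated as an ordinary J segment in RefSeq, whose assembly is not of the Balb/c strain. All 39 distinct nonproductive TRAJ23 rearrangements whose CDR3 could be read carried a stop codon in the frame counted from the first CDR3 base. They shared their last 19 bases, in which TAG lies in frame and begins 18 bases before the CDR3 end: ctaggggaagcttatcttt. Of these joins, 33 had a usual V start and the J in frame, with the stop inside this shared tail on the J side. The 3 productive TRAJ23 CDR3s shared a shorter tail of 14 bases, ggaagcttatcttt. A CDR3 with the full tail cannot be called productive, since the tail holds the stop. The other 44 nonproductive TRAJ23 rearrangements had no CDR3. TRAJ23 was joined to 41 V genes in the nonproductive class.

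TRAJ23 and TRAJ2 were the genes called among 43 J genes tested at an adjusted p under 0.05 (4.65% of the genes), both higher in the nonproductive class. TRAJ2, the last J segment seen here before the constant gene, was used by 3, 4, 8, 4, 1 and 23 nonproductive rearrangements in PBS1, PBS2, CSF1R, CTX, CTX2 and Combined, and by 2, 1, 1, 4, 2 and 24 productive ones. Its share was higher in 5 libraries and lower in CTX2 (log2 fold change 2.30 ± 0.41, SE, edgeR adjusted p = 1.188e-06).

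The TRAJ2 call rested on incomplete contigs. Of its 43 nonproductive rearrangements, 26 were not full length, and of the 34 productive ones, 0 were. With full-length contigs alone, the log2 fold change was 0.98 and the edgeR adjusted p 0.34. Of 10 TRAJ2 joins with a CDR3, 9 held a stop and 9 had the J shifted, both counted from the first CDR3 base.

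The J segments with the largest mean share of the nonproductive class were TRAJ53 (5.98%), TRAJ23 (5.16%), TRAJ48 (5.15%), TRAJ49 (4.73%) and TRAJ32 (4.23%). Apart from TRAJ23 none of these passed the test, and TRAJ53 owed 49 of its 127 rearrangements to CTX2. TRAJ18 and TRAJ33, the J segments of invariant NKT and MAIT receptors, took 2.24% and 0.832% of the nonproductive class, against 3.13% and 1.92% of the productive class. Neither passed (edgeR adjusted p = 0.68 and 0.11). The canonical pairs were rare. TRAV11 with TRAJ18 occurred in 6 nonproductive and 13 productive rearrangements, and TRAV1 with TRAJ33 in 0 and 6.

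**Figure D4:**
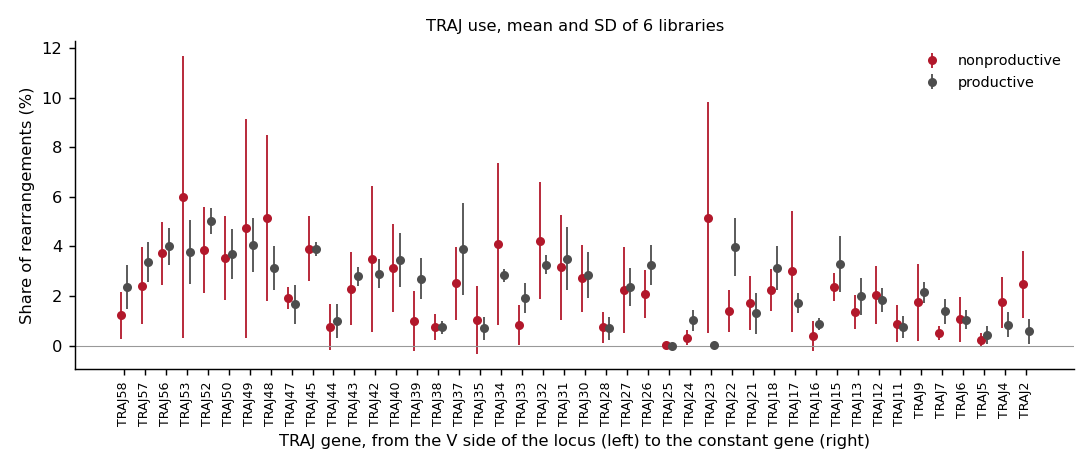
Percentage of distinct rearrangements that used each TRAJ gene, in the nonproductive (red) and productive (grey) class, as mean and SD of 6 libraries, with the genes in locus order. TRAJ23 stands at 5.16% of the nonproductive class and near 0 in the productive class; the wide bars of TRAJ53 and TRAJ49 reflect CTX2.

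Among V segments, 6 of 70 tested differed (8.57% of the genes), 5 of them higher and 1 lower in the nonproductive class. The higher ones were rare among productive chains and belong to duplicated V blocks, whose near-identical copies make the split of reads between copies uncertain. All of them but TRAV13N-4 met the minimum of 10 rearrangements for a test through the nonproductive class alone. TRAV13N-4 (chr14:53362368-53364106) was higher in 6 of 6 libraries, with 28 nonproductive and 15 productive rearrangements and a share of 1.06% to 1.48% of the nonproductive class in each library (log2 fold change 2.86 ± 0.66, SE, edgeR adjusted p = 0.0003555). Its level was the most even of the 5. Leaving out Combined gave 2.69 and an adjusted p of 0.060.

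TRAV13D-4 was used by 23 nonproductive rearrangements, 19 of them in Combined, and 3 productive ones (edgeR adjusted p = 0.0001968). The pooled ratio was 31.4 with a 95% counting interval of 9.50 to 164. This interval too takes each rearrangement as independent, and the 23 came from 16 V-J pairs, counted per library. TRAV13N-3 was used by 58 nonproductive and 9 productive rearrangements (log2 fold change 3.82 ± 0.82, SE, edgeR adjusted p = 0.0001626), and 46 of the 58 were in CTX2, among them the 45 of the TRBV4 clone above. Without CTX2 its log2 fold change was 2.74 and the adjusted p 0.046. With contigs marked as not productive alone, it was 1.89 and the adjusted p 0.34. These 2 genes thus drew most of their rearrangements from a single library each, and TRAV13D-4 fell below the minimum of 10 rearrangements for a test without Combined. With 3 productive rearrangements of TRAV13D-4 and 9 of TRAV13N-3, both met that minimum through the nonproductive class alone. Their calls carry no weight beyond the counts.

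TRAV14N-2 and TRAV10 had 0 productive rearrangements among 9383. TRAV14N-2 was used by 18 nonproductive ones (edgeR adjusted p = 7.869e-05) and TRAV10 by 10 (adjusted p = 0.0107). Against a floor of 3 counts over all libraries, their shares were at least 24.6-fold and at least 13.7-fold higher in the nonproductive class. In CTX2, 11 of the 18 TRAV14N-2 rearrangements were found, 9 of them the TRAV14N-2/TRAJ49 pair of 1 clone, counted at 9 contig lengths. The 18 came from 10 V-J pairs, counted per library. The fold for TRAV14N-2 thus holds only for rearrangements as counted here. With 0 productive rearrangements, both met the minimum of 10 for a test through the nonproductive class alone, so their calls carry no weight beyond the counts. They fell below it with high-confidence contigs, with 2 or more UMIs and with contigs marked as not productive. Without CTX2 both genes fell below the minimum as well, as did TRAV10 without CSF1R or Combined. With DESeq2, TRAV14N-2, TRAV10 and TRAV13D-4 were not called (adjusted p = 0.34, 0.75 and 0.71).

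The 1 lower V gene was TRAV16N (chr14:53351090-53351621). It took 1.43% of the nonproductive and 8.28% of the productive class in PBS1, 3.70% and 4.70% in PBS2, 1.98% and 5.02% in CSF1R, 2.34% and 5.73% in CTX, 0.704% and 5.21% in CTX2, and 2.40% and 3.76% in Combined. It was lower in 6 of 6 libraries, with the smallest gap in PBS2 (50 against 390 rearrangements, log2 fold change −1.25 ± 0.34, SE, edgeR adjusted p = 0.0046). Counting contigs in place of distinct rearrangements gave −1.20 and an adjusted p of 0.19.

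By V family, TRAV13 took 14.1% of the nonproductive and 6.92% of the productive class (means of 6 libraries) and was higher in 6 of 6. TRAV16, with 2.19% against 5.57%, and TRAV17, with 0.421% against 1.24%, were lower in 6 of 6. The V genes shared with the delta chain locus were lower too in 6 of 6 libraries, at 7.33% against 9.72%. These family shares are descriptions and carry no test. The 5 V genes with the largest mean share of the nonproductive class were TRAV12D-2 (5.0%), TRAV4-3 (4.10%), TRAV9-4 (4.10%), TRAV6-5 (3.95%) and TRAV7-4 (3.69%), and none of them passed the test. TRAV12D-2 passed with contigs marked as not productive alone (log2 fold change 1.80, edgeR adjusted p = 4.714e-06) and with contigs lacking a CDR3 counted once per V and J gene (0.69, adjusted p = 0.0054), and TRAV7-4 passed without CTX2 (1.21, adjusted p = 0.017). Of 16 TRAV and 9 TRAJ pseudogenes in RefSeq, 1 was seen, TRAV23, with 5 nonproductive and 5 productive rearrangements.

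Positions along the locus were compared next. The mean TRAJ number was 34.9 ± 1.17 in the nonproductive and 35.4 ± 0.996 in the productive class (SD, n = 6, where a higher number lies nearer the V segments), lower in 4 libraries and higher in 2 (exact sign-flip p = 0.375, adjusted 0.64). The mean difference of −0.50 was −2.53 with high-confidence contigs (exact p = 0.0625), −2.14 with 2 or more UMIs (exact p = 0.125), −1.12 with contigs marked as not productive (exact p = 0.406) and −1.26 with contigs lacking a CDR3 counted once per V and J gene (exact p = 0.03125, not adjusted). V segments gave an exact p of 0.375 as well. Of 4 J blocks, TRAJ46 to TRAJ34 was lower in 6 of 6 libraries, at 22.9% against 24.8% (difference −1.92 ± 0.81 percentage points, SD, n = 6, exact sign-flip p = 0.03125, adjusted 0.075), with −1.46 in the JR-numbered and −2.15 in the other libraries. It was −8.92 with contigs marked as not productive alone (exact p = 0.03125, not adjusted), and the unadjusted p no longer passed with high-confidence contigs (exact p = 0.4375), 2 or more UMIs (0.281) or contigs lacking a CDR3 counted once per V and J gene (0.0625). The other 3 blocks gave exact p-values of 0.62 or above.

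The most downstream block, TRAJ20 to TRAJ1, depended on which contigs were used. Its share was 19.96% in both classes, with a mean difference of 0.01 percentage points. With high-confidence contigs alone it was higher in the nonproductive class by 4.75 percentage points, and with contigs of 2 or more UMIs by 4.40 (exact sign-flip p = 0.03125 each, not adjusted).

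The J segments of the 2 alpha chains of a barcode were alike in position, and their V segments were not. Each combination of a nonproductive V-J pair and a productive rearrangement was counted once per library, which left 1377 pairs. Spearman's rho between the TRAJ numbers of the nonproductive and productive chain was 0.700 in PBS1 (38 pairs), 0.743 in PBS2 (93), 0.712 in CSF1R (163), 0.671 in CTX (109), 0.704 in CTX2 (127) and 0.655 in Combined (847). The values lay within a narrow range in the 6 libraries. For V position, rho ran from −0.14 in PBS2 to 0.19 in CSF1R. The pairs of a library share its depth and its segment use, and these correlations across barcodes are descriptions.

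For comparison, rho between the TRAJ numbers of 2 productive alpha chains in a barcode was 0.569 over 1304 pairs, from 0.523 in CTX2 to 0.801 in PBS1. Between the TRAJ and TRBJ numbers of a barcode, which lie in different loci, rho was 0.081 over 1301 pairs, and the value of PBS1, 0.316 over 34 pairs, was the highest.

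The median distance between the J numbers of a pair was 6, and 45.7% of pairs lay within 5. Where the productive chain used TRAJ61 to TRAJ47, the nonproductive chain used that block in 69.5% of 390 pairs and TRAJ20 to TRAJ1 in 3.08%. Where the productive chain used TRAJ20 to TRAJ1, the nonproductive chain used that block in 48.7% of 277 pairs and TRAJ61 to TRAJ47 in 3.97%. The 2 chains thus stood near each other at both ends of the J region.

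Neither chain lay further along the locus as a rule. The nonproductive J was upstream in 653 pairs, downstream in 636 and the same gene in 88. Its upstream share was 54.3% in PBS1, 45.5% in PBS2, 50.3% in CSF1R, 49.0% in CTX, 54.2% in CTX2 and 50.8% in Combined. The mean of 50.7% ± 3.33 (SD, n = 6) gave an exact sign-flip p of 0.719 against an even split. With contigs of 2 or more UMIs alone, the mean difference from an even split was −4.38 percentage points (exact p = 0.03125, not adjusted), with high-confidence contigs −5.19 (exact p = 0.0625) and with contigs marked as not productive 8.54 (exact p = 0.1875).

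**Figure D5:**
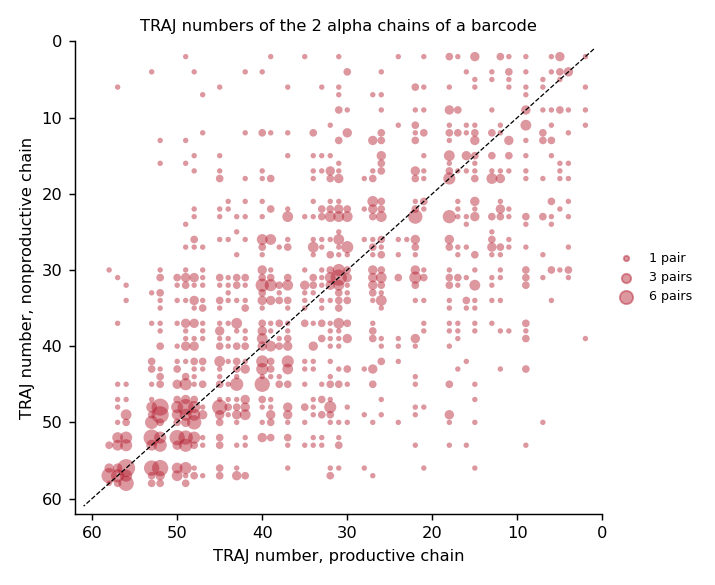
TRAJ number of the nonproductive chain against that of the productive chain in the same barcode, for 1377 pairs of 6 libraries, with point area in proportion to the number of pairs and both axes running from the V side (high numbers) to the constant gene. Pairs gather along the dashed line of equal numbers, and the corners where 1 chain uses a high and the other a low number are sparse.

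The reading frame could be examined in the 520 distinct nonproductive rearrangements with a CDR3. Of these, 223 (42.9%) held a stop codon in the frame counted from the first CDR3 base, from 7 of 20 in PBS1 to 147 of 331 (44.4%) in Combined. Productive CDR3s hold none by definition. All these CDR3s were a multiple of 3 bases long. The phase of the J end was therefore read relative to the first CDR3 base. By this measure the J end lay in the frame usual for that J gene in 390 (75.0%), was shifted in 101 (19.4%) and was not found in 29. Of the 390, 223 had a V start not usual for the family. For these, whether the J was in frame with the V gene was not tested. Of the 101 shifted, 72 held a stop. Among productive rearrangements 69 (0.735%) had a shifted J end, 15 of them among the 193 with TRAJ17.

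The V end differed more. The first 6 bases of the CDR3 were ones usual for the V family in 261 nonproductive rearrangements (50.2%) and in 97.8% of productive ones. With the J in frame and another V start there were 223 rearrangements, 83 of them with a stop. Another V start and a stop also occurred in 20 with a shifted J and in 9 with the J not found. The commonest other start, tgtact, opened 90 joins, among them the TRAV9-4/TRAJ17 CDR3 printed above. In that CDR3, tgtgct, the start of the printed productive TRAV9-4 CDR3, lies further in and in a different frame from the marked stop. For the other joins, whether the stops after another V start lie in the reading frame of the V gene was not tested. By J gene, TRAJ23 had a stop in 39 of 39, TRAJ27 in 22 of 28, TRAJ17 in 20 of 26 and TRAJ38 in 19 of 27. Counted from the first CDR3 base, 22 of the 26 TRAJ17 joins had a shifted J, as in the pair from CTX2 printed above. By that measure 0 of the 39 TRAJ23 joins did. Of those 39, 33 had a usual V start, and for the rest the frame relative to the V gene was not tested.

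In 122 of the 520 neither end nor the CDR3 itself showed a defect: the V start was usual, the J was in frame and there was no stop. They were led by TRAV9-4 with 17, TRAV13D-4 with 11 and TRAV6N-6 with 11. The table holds no contig sequence outside the CDR3, so what led to their status was not tested.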

How the data were processed

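Per the labels' protocols, receptors were enriched from droplet 5′ libraries with a mouse T cell V(D)J kit. The submitters' processing notes name Cell Ranger 3.0.2 and the builds mm10 and GRCm38. The deposited table gives raw read counts and UMI counts per contig, with no normalization, and other values such as contig length; calls were taken as deposited. Of 11 library names, 6 matched labels and the other 5 were not used.

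TRA contigs of called cells with named V and J genes were used. The members, lists and genes named (those called, up to 10, and the 5 with the largest mean share) were chosen with earlier results of these data known; TRAJ17, TRAJ27 and TRAJ38 were named after their values were seen. Single values were compared over libraries with two-sided exact sign-flip permutation tests in Python 3.11.15 and adjusted by Benjamini-Hochberg. Gene use was tested with edgeR 4.0.16 (R 4.3.3) on counts of distinct rearrangements, with the library as a block, the class total as library size and a minimum of 10 per gene. The pairing comes from both classes being read from 1 library. Scripts were tested on simulated data. A V start was usual if at least 5% of productive contigs of its family began with those 6 bases. A J was in frame if its commonest productive last 6 bases kept their phase, counted from the first CDR3 base. Positions are from RefSeq, assembly GRCm38.p6; all 81 V and 44 J names matched. Doublets were kept. Alternatives included DESeq2 1.42.0.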

Additional observations from a re-analysis of the deposited data

Results flagged for a closer look

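Of 47 sets of 6 library values examined, 9 had a lowest or highest library whose gap to its neighbour exceeded Dixon's 95% limit for 6 values; chance gives about 1 in 20. In PBS1, TRAJ23 made up 14.3% of the nonproductive rearrangements, highest of the 6, with 4 of its 10 from 1 clone counted at 4 contig lengths. PBS1 also had the lowest mean TRAJ number of productive rearrangements, 33.4, the lowest share of productive rearrangements with TRAJ61 to TRAJ47, 26.9%, and the highest with TRAJ20 to TRAJ1, 24.8%. In CTX2, TRAV13N-3 made up 16.2% and TRAV14N-2 3.87% of the nonproductive rearrangements, both highest, and TRAJ61 to TRAJ47 together 42.3%, also highest. The nonproductive minus productive difference in the V-J position correlation was lowest in CTX2, at −0.32. Combined had the lowest share of TRA-bearing cells with a nonproductive chain, 20.8%.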

How the results depend on the processing

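The lower UMIs and reads, the larger share with 1 UMI and the lower UMIs within a barcode kept their direction under each alternative run, but with high-confidence contigs the log2 UMIs differed by −0.72, reads by −0.76, the single-UMI share by 4.47 points and UMIs within a barcode by −0.51. The mean nonproductive share was 7.62% with contigs marked not productive alone, 17.5% with high-confidence contigs and 18.5% with 2 or more UMIs. The 2 JR libraries alone gave a single-UMI difference of 38.3 points. With 5 libraries the sign-flip test cannot go below 0.0625, so leaving out 1 library ends each call by construction: the ranges were −1.24 to −1.06 for log2 UMIs, −1.19 to −1.07 for reads, 32.3 to 34.6 points for the single-UMI share, −1.40 to −1.23 for UMIs within a barcode and −2.10 to −1.64 points for TRAJ46 to TRAJ34. Ranges that crossed 0 were −0.060 to 0.027 for the V-J position correlation, −0.43 to 2.42 points for TRAJ61 to TRAJ47, −1.07 to 3.404 for TRAJ33 to TRAJ21, −0.98 to 0.51 for TRAJ20 to TRAJ1 and −0.038 to 1.73 for the upstream share.

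With contigs lacking a CDR3 counted once per V and J gene, the TRAJ number differed by −1.26 (exact p = 0.03125), the V-J correlation by 0.0066, TRAJ61 to TRAJ47 by −0.22 points and TRAJ46 to TRAJ34 by −3.19. High-confidence contigs gave 0.0063 for the V-J correlation, −3.29 points for TRAJ61 to TRAJ47, −2.07 for TRAJ46 to TRAJ34, 4.75 for TRAJ20 to TRAJ1 and −5.19 for the upstream share. Contigs of 2 or more UMIs gave −1.61, −3.15, 4.40 and −4.38. TRAJ20 to TRAJ1 was −0.75 with contigs marked not productive, −1.13 with full-length contigs and −0.33 without possible doublets. For these the cause was not tested.

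With PBS2 counted as treated or untreated, the treated minus untreated share was −6.84 or −2.92 points; with smallest possible p-values of 0.167 and 0.0667, neither could pass.

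V genes called numbered 6, and 13 with contigs marked not productive, 11 with 1 count per V and J gene, 3 with DESeq2 and 3 to 6 with a library left out (3 without Combined). J genes called numbered 2, and 5 with contigs marked not productive, 4 with 1 count per V and J gene, 1 with full-length contigs, 6 with contigs counted, 2 with DESeq2, and 2 to 6 with a library left out (6 without CTX). With no replicate block, 6 V and 3 J genes were called. Fold changes that changed sign were those of genes that did not pass: TRAV4-3 (−0.21), TRAJ32 (−0.83), TRAJ48 (−0.52), TRAJ49 (−0.88) and TRAJ53 (−0.49) with contigs marked not productive; TRAV9-4 (−0.11 full length, −0.12 with 2 or more UMIs, −0.032 with 1 count per V and J gene, −0.025 with TMM, −0.043 with DESeq2, −0.16 to 0.20 with a library left out); TRAV12D-2 (−0.29) and TRAJ49 (−0.45) with contigs counted; TRAJ49 (−0.052 high confidence, −0.26 with 1 count per V and J gene, −0.28 to 0.30 with a library left out); and TRAJ32 (−0.014 to 0.43 with a library left out). TRAJ23 ranged from 6.25 to 7.29.

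Median UMIs of 1 to 2 limit the detection of nonproductive chains. Chosen after seeing the data, 4 contig filters gave a mean same-barcode rho of 0.675 to 0.719, against 0.697.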
